A study of Mus musculus with 2 samples.

Results

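Mir337, Mir540, Mir665, Mir431, Mir433, Mir127 and Mir434 are microRNA (miRNA) hairpin genes of the imprinted Dlk1-Dio3 region on mouse chromosome 12. They lie near or opposite Rtl1, upstream of the large Mir379 cluster, and were taken by symbol, with no threshold on a measured value. All 7 were listed among the 1973 miRNA genes of the count files. The small RNA came from limb of mouse strain B6NCrl at embryonic day 11.5, with both sexes pooled. The 2 libraries form 1 group: replicate 1 was made from 109 embryos and replicate 2 from 88. They carry no treatment or genetic change in the labels, which describe the embryos as healthy and give both pools the same donor identifier. P-values therefore concern only the difference between these 2 libraries, set against counting error or that error widened by the deviation over all genes. No comparison between conditions was possible. A pool of whole limbs mixes cell types, so fewer cells of a type and less RNA per cell cannot be told apart in any value below.

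In the Dlk1-Dio3 region the maternal chromosome makes noncoding RNAs, the miRNA hairpins among them, while the paternal chromosome makes the proteins Dlk1, Rtl1 and Dio3. Rtl1 derives from a retrotransposon and is needed in the placenta and in fetal muscle. The hairpins opposite Rtl1 are read from the other strand of its coding sequence, so their mature miRNAs pair with Rtl1 messenger RNA along their full length and can direct its cleavage, whereas most animal miRNAs repress targets through a short seed at bases 2 to 8.

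The mature sequences are shown because the counts were made per hairpin: either arm of a hairpin could have given its reads. They are from RefSeq (GRCm38.p6, the assembly also called mm10), where all 7 genes matched by symbol, and all are on the plus strand of chromosome 12. Capitals mark the seed. The first 6 arms come from the 3 hairpins outside the GENCODE model of Rtl1.
miR-337-5p: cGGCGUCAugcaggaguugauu
miR-337-3p: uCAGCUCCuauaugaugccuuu
miR-540-5p: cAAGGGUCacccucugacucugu
miR-540-3p: aGGUCAGAggucgauccugg
miR-665-5p: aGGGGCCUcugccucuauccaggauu
miR-665-3p: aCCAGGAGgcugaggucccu
The remaining 8 arms come from the 4 hairpins opposite the Rtl1 coding sequence.
miR-431-5p: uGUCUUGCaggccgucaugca
miR-431-3p: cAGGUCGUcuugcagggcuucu
miR-433-5p: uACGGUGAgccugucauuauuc
miR-433-3p: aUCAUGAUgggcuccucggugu
miR-127-5p: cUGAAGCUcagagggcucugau
miR-127-3p: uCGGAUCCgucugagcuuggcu
miR-434-5p: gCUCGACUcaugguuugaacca
miR-434-3p: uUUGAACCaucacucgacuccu

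No seed was shared between any of the 14 arms, so these neighbours form no seed family. For 13 of the 14 arms no other mature miRNA of the RefSeq table had the same seed; miR-540-3p shared its seed with miR-6915-5p. In the whole table of 1679 mature miRNAs, 72.1% had a seed of their own. A uridine stood at the first base of 5 of the 14 arms, against 40.9% of all mature miRNAs in the table.

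The hairpins fell into 2 groups by position. Mir337 (ENSMUSG00000065526, chr12:109585789-109585885), Mir540 (ENSMUSG00000072900, chr12:109586080-109586146) and Mir665 (ENSMUSG00000076313, chr12:109586314-109586407) lie within 619 bp, past the 3′ end of Rtl1 as GENCODE M21 draws it. Mir665, the nearest, ends 2785 bp from it. Mir431 (ENSMUSG00000070080, chr12:109590447-109590537), Mir433 (ENSMUSG00000070072, chr12:109591715-109591838), Mir127 (ENSMUSG00000070076, chr12:109592846-109592915) and Mir434 (ENSMUSG00000070133, chr12:109594506-109594599) are spread over 4153 bp. All 4 lie antisense to the single large coding exon of Rtl1, inside its coding part from 109590172 to 109595403. The RefSeq gene model of Rtl1 is longer, from 109564900 to 109604418, and all 7 hairpins fall within that span. GENCODE M21 draws no longer transcript on the strand of the hairpins at any of the 7, so no host gene or intron can be named from it.

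Because of this overlap, each of the 8 arms of Mir431, Mir433, Mir127 and Mir434 had 1 exact full-length complement in the GENCODE Rtl1 transcript, and all 8 complements fell in coding sequence. The GENCODE transcript was the only one searched, and Mir337, Mir540 and Mir665 lie outside it; their 6 arms had no full-length complement in it. The sites for 1 arm of each of the 2 most abundant hairpins are shown as Rtl1 messenger RNA, with the bases facing the seed in capitals.
Rtl1 site of miR-431-5p: ugcaugacggccuGCAAGACa
Rtl1 site of miR-127-3p: agccaagcucagacGGAUCCGa
On the minus strand these sites are chr12:109590459-109590479 and chr12:109592888-109592909 (GRCm38), at bases 5072 to 5092 and 2642 to 2663 of the transcript. No Rtl1 messenger RNA level was analysed here, so the pairing is a description of sequence alone.

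The libraries held 2953085 sense counts in replicate 1 and 3459176 in replicate 2. Levels are given in CPM, the counts scaled to a total of 1000000 sense counts in each library, and a count of 0 allows up to 1.02 and 0.867 CPM, which covers counting error only, as do all Wilson 95% intervals below. Over all tested genes the spread between libraries was above sampling noise, with a chi-square of 18.7 per degree of freedom. Taken from the median squared deviation, the factor was 2.64. The libraries are thus not the same reads deposited under both names, but this spread cannot tell whether they share starting material. The 5 markers of limb and mesenchyme (Mir196b, Mir10b, Mir214, Mir199b and Mir140) all reached 10 CPM in each library, the threshold for a detected gene here, and held 16.1% ± 0.53 of the counts (SD, n = 2, as for all values given as mean ± SD). Among markers of other cell types, the 3 of epithelium held 0.984% ± 0.116 and Mir126a of endothelium 2.42% ± 0.0084. White blood cell, erythroid, skeletal muscle, liver and neural markers held between 0.00182% and 0.0688% each; of the neural markers Mir124a-1, which has near-identical copies, was at 0 and Mir9-1 was not listed. Their part in the levels below was not tested.

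All 7 hairpins were well expressed in limb. Together they held 1.16% of sense counts in replicate 1 (Wilson 95% interval 1.15 to 1.17%) and 1.26% in replicate 2 (1.25 to 1.28%), or 1.21% ± 0.08. Each exceeded 500 CPM in both libraries, a level that 124 of the 1973 listed genes reached. Their ranks by mean level ran from 41 for Mir431 to 123 for Mir665, and the highest mean was 9.75 times the lowest.

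**Figure D1:**
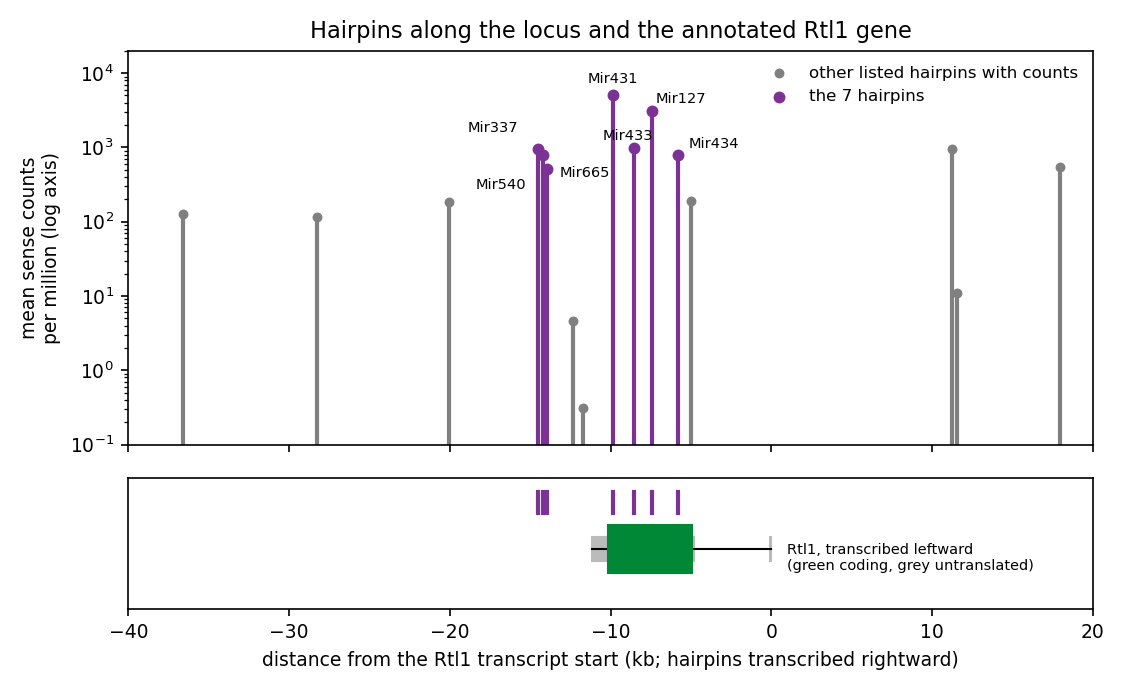
Top, mean sense level of the 2 libraries (CPM, log axis) for the 7 hairpins (purple) and the other listed hairpins with counts (grey), against distance in kb from the Rtl1 transcript start. Bottom, the GENCODE model of Rtl1, with the purple ticks repeating the positions of the 7 hairpins. Mir431 and Mir127, both opposite the coding sequence, stand highest at 5023 and 3065 CPM. The grey hairpin just right of Mir434 is the gene named Mir3071, which GENCODE M21 draws on the Rtl1 strand.

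Among the 7 hairpins, those antisense to the Rtl1 coding sequence carried most of the counts. Other hairpins of the region, described below, are not in these sums. Mir431, Mir433, Mir127 and Mir434 together made up 81.1% of the reads of the 7 in replicate 1 and 81.8% in replicate 2, and Mir337, Mir540 and Mir665 the remaining 18.9% and 18.2%. Mir431 and Mir127 alone held 66.8% ± 0.54. The other antisense hairpins of the 7, Mir433 and Mir434, were close to Mir337 and Mir540 of the outside group in level.

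Mir431, whose product is known to repress the muscle stem cell factor Pax7, led with 13981 counts (4734 CPM) in replicate 1 and 18376 counts (5312 CPM) in replicate 2. That was 0.473% of sense counts (Wilson 95% interval 0.466 to 0.481%) and 0.531% (0.524 to 0.539%). Mir431 made up 41.4% ± 0.80 of the reads of the 7 hairpins. The next gene above it in level was Mir487b of the distal Dlk1-Dio3 cluster at 5414 ± 282 CPM, and the next below was the X-linked Mir351 at 5000 ± 588 CPM. The replicate values of Mir431 overlap in range with those of both.

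Mir127, which is needed for the labyrinth of the placenta, had 8723 counts (2954 CPM) in replicate 1 and 10990 counts (3177 CPM) in replicate 2. It held 25.3% ± 0.27 of the reads of the 7. Mir431 exceeded it by 0.71 ± 0.04 log2 units, a 1.64-fold ratio. The counting error of that ratio was 0.02 log2 units in each library. Mir181b-2 at 3250 ± 454 CPM and Mir872 at 2997 ± 2.77 CPM were its neighbours in level.

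Mir433, whose product is known to target the bone transcription factor Runx2, stood well below both, at 2800 counts (948 CPM) in the first library and 3453 counts (998 CPM) in the second. Mir127 was 3.15-fold above it. Mir337 followed with 2732 counts (925 CPM) and 3380 counts (977 CPM), so its libraries overlapped those of Mir433, and the ratio of the pair, 0.03 log2 units in each library, was within its counting error of 0.04 and 0.03. These hairpins were therefore not separable in level, although Mir433 lies opposite the Rtl1 coding sequence and Mir337 outside it.

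Mir434 had 2218 counts (751 CPM) and 2938 counts (849 CPM) in replicates 1 and 2. Mir540 had 2233 counts (756 CPM) and 2809 counts (812 CPM). This pair was not separable either: Mir540 was the higher in replicate 1 and Mir434 in replicate 2, with a log2 ratio of Mir434 to Mir540 of −0.01 and 0.06. Mir337 was above Mir434 in both libraries, by 0.25 ± 0.07 log2 units, or 1.19-fold. Mir665 was lowest of the 7, at 1514 counts (513 CPM) and 1791 counts (518 CPM), and Mir540 exceeded it by 0.60 ± 0.06 log2 units, or 1.52-fold.

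In all, 4 of the 6 neighbouring pairs in the order Mir431, Mir127, Mir433, Mir337, Mir434, Mir540, Mir665 were apart. A pair was called apart where the 2 libraries did not overlap and the log2 ratio exceeded 3 times its counting error in each library. The pairs Mir433 with Mir337 and Mir434 with Mir540 were not apart. Counts per hairpin also depend on how well each sequence is ligated and amplified, and the part of that in these ratios was not tested. Levels were not divided by hairpin length, because a mature miRNA is read whole.

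**Figure D2:**
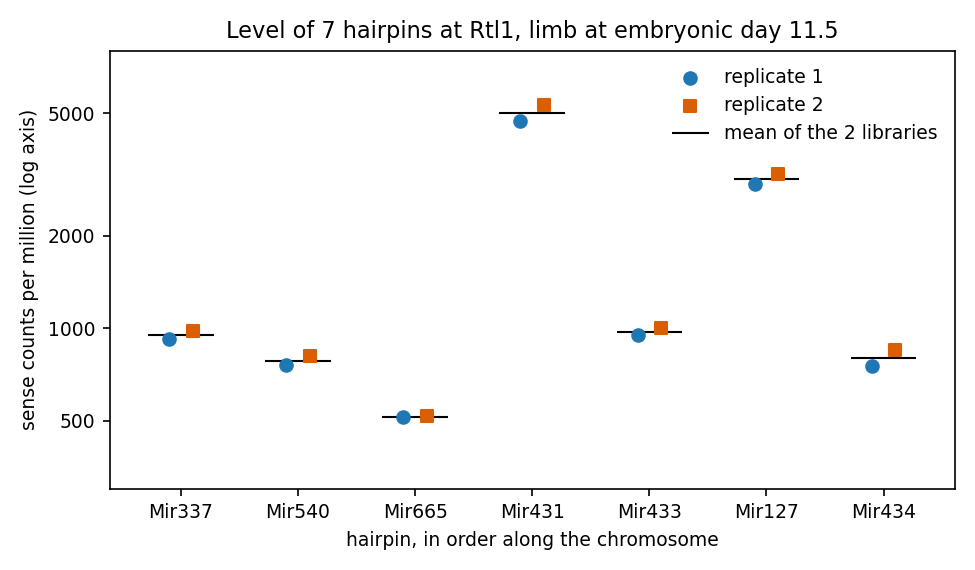
Sense level (CPM, log axis) of the 7 hairpins in replicate 1 (circles) and replicate 2 (squares), with the mean of both as a line, in order along the chromosome. Mir431 and Mir127 lie between 2954 and 5312 CPM, and the other 5 lie between 513 and 998 CPM.

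With a single tissue and age, level is the only pattern in which another gene can resemble one of these hairpins. The gene closest in mean level to Mir337 was Mir341, itself of the Dlk1-Dio3 region, at 952 ± 22 CPM. Mir134 of the distal cluster, at 959 ± 74 CPM, was next below Mir433, and Mir434 and Mir540 were next to each other. Other neighbours in level came from elsewhere: Mir20b above Mir433, Mir139 below Mir337, Mir501 above Mir434, Mir200b below Mir540, and Mir467c and Mir92b on either side of Mir665, at means from 513 to 1070 CPM.

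**Figure D3:**
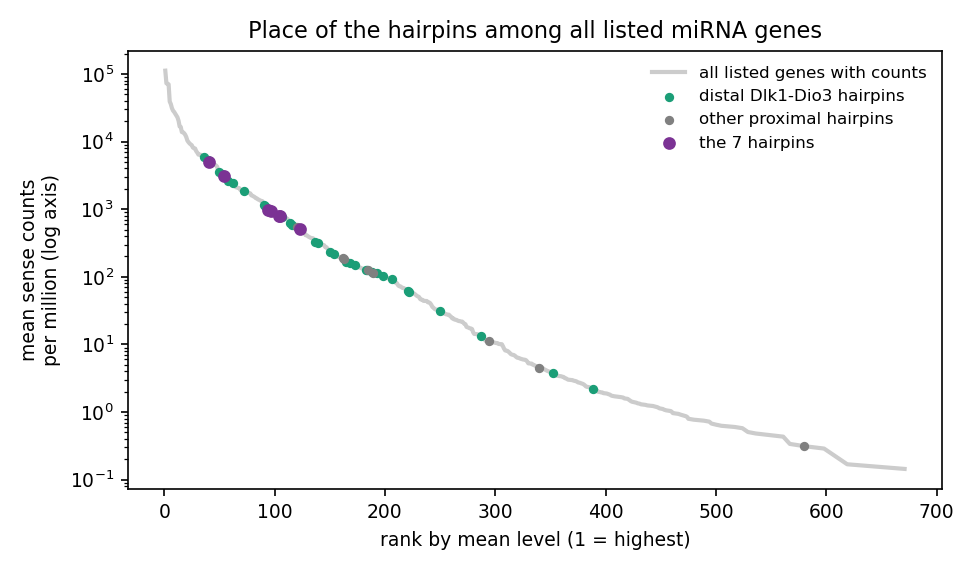
Mean sense level (CPM, log axis) against rank for the 706 listed genes with counts (grey line). The 7 hairpins (purple) rank between 41 and 123, whereas the distal Dlk1-Dio3 hairpins (green) and the other proximal hairpins (dark grey) reach down to ranks 389 and 580.

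Set against the rest of the imprinted region, the 7 hairpins held a like share in both libraries. They made up 25.6% of the sense counts of 53 listed Dlk1-Dio3 hairpins in replicate 1 (Wilson 95% interval 25.4 to 25.9%) and 25.8% in replicate 2 (25.6 to 26.1%), so the intervals overlapped. Their median level was 951 CPM, against 190 CPM for the 34 listed distal hairpins from Mir379 to Mir410 and Mir3072, of which 13 exceeded 500 CPM in both libraries. The highest distal hairpins were Mir411 at 5921 ± 257 CPM, Mir487b at 5414 ± 282 CPM and Mir541 at 3542 ± 522 CPM. Mir299a, Mir380, Mir376a, Mir376b and Mir409 of the distal cluster are not analysed here, since no identifier in the files matched them. Mir299b, in the distal list at 3.84 CPM, had 9 and 16 sense counts in replicates 1 and 2 but 4631 and 5566 opposite-strand counts. Those opposite-strand counts enter neither the shares nor the distal median. Whether they come from one of the unmatched hairpins was not tested. Reads that fit several places are outside these counts, and stretches shared with other miRNA genes were looked for only in the 7 hairpins. Low counts of a distal hairpin therefore need not mean a low level. No test was made of the difference in level between the groups.

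Of 13 other hairpins placed between Meg3 and Mir379, 11 were in the files and 6 were detected by the same threshold. They held 0.212% ± 0.006 of sense counts. Those of the Meg3 side were low, with Mir770 at 126 ± 3 CPM, Mir673 at 116 ± 14 CPM and Mir493 at 186 ± 12 CPM. Mir3070a and Mir3070b, which lie between Mir665 and Mir431, had means of 4.56 and 0.314 CPM, but RefSeq gives both the same 5p sequence, and reads that fit several places are outside these counts, so low counts there need not mean low levels. On the far side of Rtl1, Mir341 stood at 952 CPM and Mir370 at 539 ± 31 CPM, while Mir1188, close to Mir341, had 11.1 ± 1.8 CPM. Mir432, beside Mir434, and Mir882 had no sense count in either library.

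A further hairpin opposite the Rtl1 coding sequence, Mir136, is not listed by name. The files list the identifier that GENCODE M21 gives to Mir3071, which overlaps Mir136 on the other strand, with 588 and 622 sense counts and only 1 and 3 on the opposite strand. The version of that identifier differs between the files and M21, so which of the 2 genes gave these reads cannot be told, and Mir136 is not analysed. Under the name Mir3071 they are 1 of the 6 detected and of the 8 tested hairpins of the other proximal list and are part of its share and of the 53 listed hairpins. Without them the list held 0.194% ± 0.0077 of sense counts, and the 7 hairpins made up 25.8% and 25.9% of the remaining Dlk1-Dio3 counts in replicates 1 and 2.

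The identifiers of Mir337, Mir540 and Mir127 also differ in version between the files and M21, so the hairpin bounds used for counting may differ from those given here. None of the 7 hairpins shared a 20-base stretch with another annotated miRNA gene on its own strand. Copies elsewhere in the genome were not searched.

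The hairpins differed in sequence make-up and predicted folding. The GC content ran from 45.7% in Mir434 to 61.2% in Mir540, against a median of 50% over the 295 detected hairpins. Predicted minimum free energy per base (RNAfold), which is lower for a more stable fold, ran from −0.61 kcal/mol in Mir540 to −0.36 in Mir433, with a median of −0.43 over detected hairpins. By that measure 3.39% of detected hairpins were more stable than Mir540 and 88.8% more stable than Mir433. The most abundant, Mir431 and Mir127, had −0.48 and −0.50, near the less abundant Mir337 at −0.51 and Mir665 at −0.47. Whether level goes with folding was not tested.

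Internal repeats were found in 3 of the hairpins, as stretches of 10 or more bases present in 2 copies. They are shown with both copies in capitals, because in Mir431 and Mir434 they reach into both mature arms.
Mir431 hairpin: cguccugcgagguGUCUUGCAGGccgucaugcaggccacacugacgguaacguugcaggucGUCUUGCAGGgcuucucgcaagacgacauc
Mir434 hairpin: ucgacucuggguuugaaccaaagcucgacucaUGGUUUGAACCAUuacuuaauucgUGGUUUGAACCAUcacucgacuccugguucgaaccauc
Mir540 hairpin: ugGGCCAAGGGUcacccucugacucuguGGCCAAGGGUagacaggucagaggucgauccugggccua
The Mir431 repeat of 10 bases lies whole within both arms and contains the seed of miR-431-5p. The Mir434 repeat of 13 bases overlaps the arms, which share 9 bases that include the seed of miR-434-3p. The longest repeats of Mir337, Mir665, Mir433 and Mir127 had 5 to 7 bases.

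Between the libraries, 3 of the 7 hairpins differed beyond counting error, and all 3, Mir431, Mir127 and Mir434, were higher in replicate 2. Each gene was tested with a two-sided exact binomial test, with library sizes scaled by TMM and Benjamini-Hochberg adjustment at 0.05 over all 422 tested genes. In that background 21.3% of genes were called, 9.48% as higher in replicate 2 and 11.8% as lower. Among the 123 tested genes with at least as many counts as Mir665, the lowest of the 7, 26.8% were called higher, so 3 of 7 is set against a high background at this depth. All 7 passed the filter of 10 counts over both libraries.

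Mir431 was 1.11-fold higher in replicate 2, with a log2 ratio of 0.15 ± 0.02 (counting error) and an adjusted p of 4.8e-20 by the exact binomial test. Mir127 had a log2 ratio of 0.09 ± 0.02, or 1.07-fold (adjusted p = 7.1e-05, exact binomial test), and Mir434 0.16 ± 0.04, or 1.12-fold (adjusted p = 0.00038, exact binomial test). These differences exceed the ratios of the 2 pairs that were not apart in level, 0.03 log2 units each, and are below the ratio of Mir431 to Mir127. Mir540, Mir337 and Mir433 had log2 ratios of 0.09, 0.07 and 0.06, and Mir665 had 0.00; these did not pass. All 7 ratios were above 0, beside 210 of 422 over all tested genes, although that of Mir665 changed sign with DESeq2 size factors and with a minimum of 100 counts. The median log2 ratio of the 7 was 0.09, beside 0.00 over all tested genes. The distal hairpins had the same median of 0.09, with 9 of 32 tested called higher and none lower, and of the other proximal hairpins 0 of 8 tested were called.

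The calls depended on the error model. With the binomial variance widened by the median squared deviation of all genes, Mir431 alone of the 7 passed, against 4.98% of genes called higher, and Mir127 and Mir434 had adjusted p of 0.052 and 0.092. Widened by the mean squared deviation, none of the 7 passed, against 1.18% of genes, and Mir431 had an adjusted p of 0.59. Both percentages are over all tested genes. Of the 123 genes with at least the counts of Mir665, 43 were called in either direction with the median and 10 with the mean. By the binomial test 33 of these 123 were called higher and 34 lower. The epithelial markers Mir205, Mir203 and Mir200b were also higher in replicate 2, with 3 of 3 called by the binomial test, 2 with the variance widened by the median and 1 by the mean, and a median log2 ratio of 0.20. Of the 5 limb and mesenchyme markers 4, 4 and 3 were called in these tests, all lower, with a median log2 ratio of −0.09. Each of these 5 had more counts than Mir665, and a gene with more counts is called at a smaller ratio. Erythroid Mir451a was higher, with a log2 ratio of 0.43 (adjusted p = 1.5e-12, exact binomial test), and was called with the variance widened by the median but not by the mean. The other erythroid marker, Mir144, went the other way, with a log2 ratio of −0.27, and was not called by the binomial test. Endothelial Mir126a was lower by the binomial test alone, with a log2 ratio of −0.02 (adjusted p = 0.033, exact binomial test). The part of cell make-up in the difference was not tested.

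**Figure D4:**
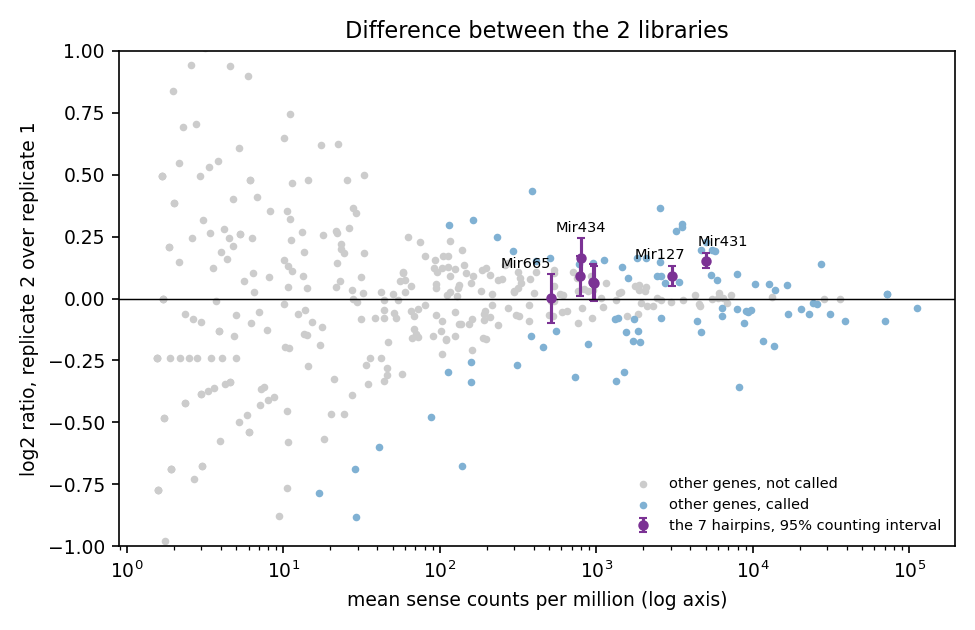
Log2 ratio of replicate 2 over replicate 1 against mean sense level (CPM, log axis) for the tested genes, with 23 of them outside the plotted range of −1 to 1. Blue points passed the binomial test and grey points did not. The 7 hairpins (purple, with 95% counting intervals) lie between 0.00 and 0.16, and the intervals of Mir431, Mir127, Mir434 and Mir540 lie above 0.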

How the data were processed

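The authors deposited raw read counts per miRNA gene in 1 file per library, without normalization; the notes deposited beside them name assembly mm10 and annotation M4. Sources used here give no aligner or counter. Each file has no header and 3 count columns, of which the first equals the sum of the others for every gene; the second, which holds nearly all counts, was read as the strand of the gene, and the last as the other strand. No header names them. Lines for unmapped (23.6% and 23.5% of reads in replicates 1 and 2), multimapping (24.7% and 23.4%) and no-feature reads (6.45% and 5.39%) stayed out of library sizes and tests.

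Symbols and coordinates (1-based) came from GENCODE M21, which matched 1894 of 1973 identifiers without version. Log2 ratios used a prior count of 0.5. TMM factors came from edgeR 4.0.16 and size factors from DESeq2 1.42.0 in R 4.3.3; the quasi-likelihood test was not used, because there is a single group. ViennaRNA 2.7.2 folded hairpins, and Python 3.11.15 with scipy 1.17.1 did the rest. The test was checked on simulated counts that held sampling noise alone and known changes larger than the differences of the 7 hairpins. That check does not cover the extra spread between these libraries, or differences as small as those of the hairpins. Named genes were the 7 hairpins, the other hairpins from Meg3 to Mir379, the nearest genes in level and the 3 highest distal hairpins. The members and lists were chosen with earlier results of these data known.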

Additional observations from a re-analysis of the deposited data

Results flagged for a closer look

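The opposite-strand column, which no comparison above uses, held 14 counts at Mir337 in replicate 1 and 20 in replicate 2, more than the 3 that an observed 0 allows. That was 0.510% of the counts of both strands there (Wilson 95% interval 0.304 to 0.854%) and 0.588% (0.381 to 0.907%). The other 6 hairpins held 1 opposite-strand count in all, at Mir434. Among 119 listed genes with at least the sense counts of Mir665 and no annotated miRNA gene on the other strand, 14 had any opposite-strand count, and the highest share was 0.231%, at Mir203 (named after its values were seen). At the same depth 4 genes, Mir337 among them, have an annotated miRNA gene on the other strand. Of these, 3 had opposite-strand counts, with a median share of 0.181% and the highest, 0.553%, at Mir337. Mir3544 is annotated opposite Mir337 in GENCODE M21 and is not in the files under its own name; whether these reads come from it was not tested.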

How the results depend on the processing

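With all reads listed in the files as denominator, the summed share of the 7 hairpins was 0.551% instead of 1.21%, since that total includes unmapped and multimapping reads; with each library alone it was 1.16 to 1.26%. Genes that differed between the libraries numbered 90 in the main test, 48 with the overdispersed test from the median squared deviation and 12 from the mean; of the 7 hairpins these tests called 3, 1 and 0. Total counts as scaling called 45 genes higher and 42 lower, against 40 and 50 in the main test. The log2 ratio of Mir665 changed sign, to −0.00054 with DESeq2 size factors and −0.00034 with a minimum of 100 counts, and was not called under any alternative. Of 56 alternative log2 ratios of the 7 hairpins, 49 kept direction and call, 5 lost the call (all with an overdispersed test) and 2 changed sign. The order kept 4 pairs apart with both strands counted. Each library alone also gave 4, which follows from the criterion, since it already asks for each library; Mir434 and Mir540 changed places in replicate 1. The alternatives for the order, for the shares within the 7, for their count of calls and for leaving out Mir3071 were chosen after seeing the data. No paired analysis was possible because there is a single group, and a test between libraries cannot leave one out.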
